A study of Mus musculus and Homo sapiens with 22 samples.

Results

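RNA structure in the nucleoplasm of mouse embryonic stem cells was set against that in the cytoplasm of the same cell line, both probed in living cells by icSHAPE. The compared transcripts were those with at least 100 nucleotides scored in both in vivo files. The rule does not read the abundance value or the size of the score, but transcripts that failed it had lower abundance values (below). It gave 7398 transcripts of the 8955 listed in both files, and of 43971 listed across all icSHAPE files of the series. The cells were the V6.5 mouse embryonic stem (mES) line, grown on gelatin with LIF, and no genetic change is given in the labels for them. The nucleoplasm in vivo and cytoplasm in vivo groups received the reagent NAI-N3 for 5 min at 37 °C before the cells were fractionated. In the nucleoplasm in vitro and cytoplasm in vitro groups, RNA was purified after fractionation, denatured at 95 °C, refolded in 6 mM MgCl2, 100 mM NaCl and 100 mM HEPES, and then treated. The refolded RNA served as background over the same nucleotides. Each group was 1 file of 1 cell line, so no test between groups was possible. Intervals given below are exact (Clopper-Pearson) 95% binomial intervals that cover only the counting of transcripts or windows, which share genes and sequence.

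icSHAPE marks RNA bases that can move freely: NAI-N3 reacts with their sugar, and each nucleotide gets a score from 0 to 1 for how strongly it reacted. Paired or tightly bound nucleotides react little. An mRNA is capped, spliced and bound by nuclear proteins before export, its 5′ cap being held by the nuclear cap-binding complex. In the cytoplasm the cap is bound by translation initiation factors, and ribosomes with their helicase partners open the message as they load at the 5′ end and read it. Many small RNAs and some long noncoding RNAs stay in the nucleus.

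The nucleoplasm in vivo file scored 12194387 nucleotides in 12060 transcripts, and the cytoplasm in vivo file 10108000 in 10568. Read depth per file is not given, and the labels state about 200 M reads per replicate without saying how replicates entered the 1 file of a group. Scored positions were not chosen independently in vivo and in vitro. All 8608 transcripts with at least 100 scored nucleotides in both nucleoplasm files had identical scored positions in vivo and in vitro, as did all 5673 in the cytoplasm files, against 332 of 7413 between nucleoplasm and cytoplasm in vivo. Per the design text, solvent-only (DMSO) samples entered the calculation of both kinds of score, so the in vivo and in vitro values of a compartment cannot be treated as separate evidence. The files do not pair transcript identifiers with gene names, so gene lists, compartment markers and stem cell markers were not checked here. Transcripts are named by identifier, and any isoforms of a gene entered separately.

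The compared transcripts were 136 to 14579 nt long (median 1263) and shared a median of 543 scored nucleotides, 7475020 in total. The transcripts listed in both files that did not reach the threshold were shorter, with a median length of 425 nt. Their abundance values were lower as well, with medians of 9.96 in nucleoplasm and 17.9 in cytoplasm. For the compared transcripts these medians were 21.8 in nucleoplasm and 28.4 in cytoplasm. The 3105 transcripts listed in nucleoplasm only had a median length of 2201 nt, and 26.4% of them were 4000 nt or longer. The 1613 listed in cytoplasm only had a median of 733 nt, with 2.11% at 4000 nt or longer. Just inside the threshold, ENSMUST00000082493 (136 nt) and ENSMUST00000083374 (165 nt), each with 100 shared nucleotides, had score differences of -0.00368 and -0.0363. Just outside it, ENSMUST00000031587 (1985 nt) and ENSMUST00000075968 (622 nt), each with 99, had -0.0892 and -0.00613.

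Long transcripts lay more toward the nucleoplasm than transcripts of medium length, and the shortest class was split between the compartments. The abundance value of the files has no stated unit and carries no measure of how much RNA each fraction held, so a smaller fraction and fewer copies per cell cannot be told apart, and only classes of transcripts were compared with each other. The median abundance value was 21.8 in nucleoplasm and 28.4 in cytoplasm. The median log2 ratio of nucleoplasm over cytoplasm, after a pseudocount of 1, was -0.55 (quartiles -0.98 and -0.09), and over all transcripts listed in both files it was -0.56. Set against this shift, transcripts of 300 to under 1000 nt had a median ratio of -0.87 (n = 3070), those of 1000 to under 2000 nt -0.65 (n = 1691), those of 2000 to under 4000 nt -0.33 (n = 1848) and those of 4000 nt and longer 0.07 (n = 648). Transcripts under 300 nt had the widest spread, with quartiles of -1.10 and 3.16 around a median of 0.54 (n = 141). Ratios at least 2-fold higher in nucleoplasm were found for 400 compared transcripts (5.41%), where 8.36% of all transcripts listed in both files passed that fold. Ratios at least 2-fold lower in nucleoplasm were found for 1782 (24.1%), near the 24.6% among all transcripts listed in both.

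**Figure D1:**
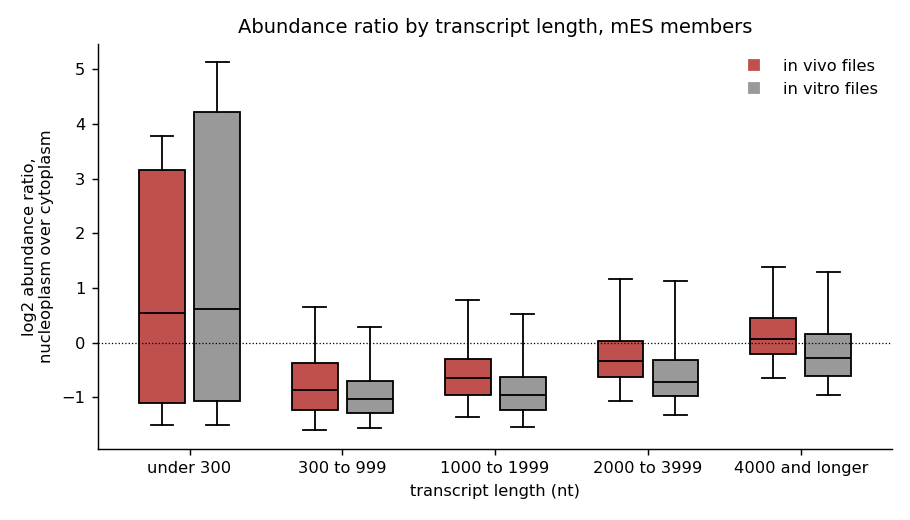
Log2 ratio of the abundance value, nucleoplasm over cytoplasm, by transcript length, for the in vivo files and for the in vitro files of the same compartments. Boxes give the median and quartiles, whiskers the 5th and 95th percentiles over transcripts; the in vivo medians go from -0.87 at 300 to under 1000 nt to 0.07 at 4000 nt and longer, and the class under 300 nt has the widest box.

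The in vitro files gave the same order of the length classes. There the median log2 ratio was -1.03, -0.95, -0.73 and -0.28 from 300 to under 1000 nt up to 4000 nt and longer, and 0.61 under 300 nt. The ratios in vivo and in vitro had the same sign for 93.9% of the 5181 transcripts listed in all 4 files. Across these transcripts Pearson's r of the ratios was 0.918, given as a description, since transcripts are not replicates and the compartment is shared.

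The transcripts with the highest nucleoplasm ratios included short ones and long ones. ENSMUST00000083888 (148 nt) had an abundance value of 809 in nucleoplasm and 27.2 in cytoplasm, a log2 ratio of 4.85. ENSMUST00000181170 (3544 nt) had 1864 in nucleoplasm and 90.7 in cytoplasm, a log2 ratio of 4.35. Of the 5 transcripts with the highest ratios, 1 per family of near-identical profiles, 3 were under 300 nt long. At the other end, ENSMUST00000057311 (1613 nt) had 11.97 in nucleoplasm and 67.99 in cytoplasm, a log2 ratio of -2.41. Among the 5 lowest, ENSMUST00000038863 (3881 nt), singled out after its values were seen, had 616 in nucleoplasm and 3022 in cytoplasm, a log2 ratio of -2.29. Its score was low in both compartments in living cells, 0.0401 in nucleoplasm and 0.0105 in cytoplasm over 414 nucleotides, and higher after refolding, 0.254 in nucleoplasm and 0.149 in cytoplasm. No compared transcript lay below -2.41, so the compared ratios reached further above their median of -0.55 than below it. Transcripts listed in nucleoplasm only or in cytoplasm only have no ratio and do not enter this range.

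Scores in living cells were lower in nucleoplasm than in cytoplasm for most transcripts, by a small margin. The median over transcripts of the mean score was 0.195 in nucleoplasm and 0.207 in cytoplasm. The mean score was higher in nucleoplasm for 29.4% of transcripts (28.4 to 30.5), and the median difference, nucleoplasm minus cytoplasm, was -0.0145 (quartiles -0.0308 and 0.00427). Odd and even positions gave the same sign for 86.3% of transcripts, which checks sampling within the files only. The size of this shift depended on the scale: 41.5% of transcripts were higher in nucleoplasm after each file was divided by its mean, and 47.7% after scores were replaced by ranks within the file. Zeros moved with it when counted per transcript: 73.6% of transcripts had a higher share of zero scores in nucleoplasm. The median share over transcripts was 33.5% of nucleotides in nucleoplasm and 28.1% in cytoplasm. With all shared nucleotides pooled, zeros were nearly level, at 32.62% in nucleoplasm and 32.03% in cytoplasm. Over all scored nucleotides of each file, on which the ranks were built, zeros were 37.97% in nucleoplasm and 34.48% in cytoplasm. The ranks thus also carry transcripts that were not compared, and their part in the shift was not tested. Over nucleotides above 0 in both files, 28.7% of transcripts were higher in nucleoplasm.

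Over the same nucleotides the refolded RNA differed the other way. Of 5181 transcripts with at least 100 nucleotides scored in all 4 files, 25.2% (24.1 to 26.5) were higher in nucleoplasm in vivo and 66.1% (64.8 to 67.4) were higher in nucleoplasm in vitro. The median differences were -0.0172 in vivo and 0.00884 in vitro. The commonest pattern, in 50.5% of these transcripts, was a lower score in nucleoplasm in living cells and a higher one after refolding, while 9.63% showed the reverse. The difference in vivo exceeded that in vitro for 23.1% (21.9 to 24.2). This last share turned to 64.3% with ranks and to 51.4% (49.99 to 52.7) with scores divided by the file mean, the latter near an even split. The offset between the living and the refolded difference thus does not hold across scales. The cytoplasm in vitro file was the sparsest of the 4, with 6288 transcripts listed and zeros at 47.7% of all its scored nucleotides. The nucleoplasm in vitro file listed 11167, with zeros at 38.1%. The part of this in the in vitro difference was not tested. No value on another scale is given here for the in vitro share.

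**Figure D2:**
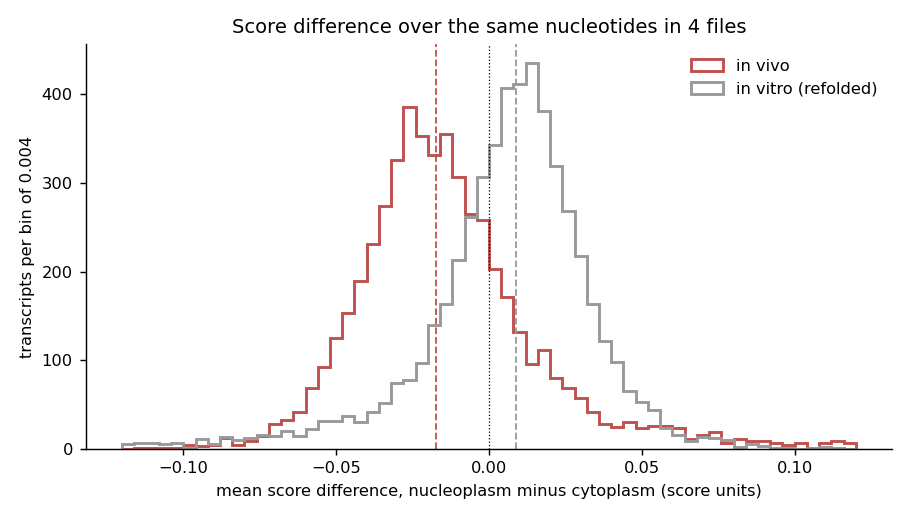
Number of transcripts by mean score difference, nucleoplasm minus cytoplasm, over the same nucleotides in living cells and in refolded RNA (5181 transcripts, bins of 0.004; dashed lines are medians). The in vivo distribution centres at -0.0172 and the in vitro one at 0.00884; 47 in vivo and 32 in vitro values lie beyond 0.12 on either side and are not drawn.

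By the median difference, the compartments differed most at the 5′ end of the transcripts, with ranks as well as with the deposited scores. By the share of transcripts higher in nucleoplasm on the deposited scale, the last scored stretch at the 3′ end, given further on, was as low. In nucleotides 1 to 25 (the files score none of the first 6), the median score was 0.246 in nucleoplasm and 0.304 in cytoplasm, and 25.96% of 1279 transcripts (23.6 to 28.5) were higher in nucleoplasm, or 33.1% with ranks. In nucleotides 26 to 50 it was 0.180 in nucleoplasm and 0.225 in cytoplasm (n = 2723). By nucleotides 301 to 400 the medians were closer, 0.193 in nucleoplasm and 0.212 in cytoplasm (n = 4813). The median difference was -0.0501 in nucleotides 1 to 25, -0.0381 in 26 to 50, -0.0320 in 51 to 75, -0.0269 in 76 to 100, -0.0212 in 151 to 200 and -0.0180 in 301 to 400. Beyond that it stayed near that level, at -0.0190 in nucleotides 601 to 1000. Not all transcripts enter each distance class, because a transcript needed 10 shared nucleotides in it.

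The refolded RNA of the same nucleotides did not fall steadily toward the start. Its median difference stayed above 0, was lowest in nucleotides 51 to 75 and was higher again in 1 to 25. Among the 1183 transcripts scored in all 4 files in nucleotides 1 to 25, the in vivo medians were 0.252 in nucleoplasm and 0.316 in cytoplasm, and the in vitro medians were 0.288 in nucleoplasm and 0.2697 in cytoplasm. The median difference there was -0.0510 in vivo and 0.00663 in vitro. In vitro the median difference was 0.0116 in nucleotides 601 to 1000, 0.00829 in 301 to 400, 0.00184 in 51 to 75 and 0.00663 in 1 to 25. The share of transcripts higher in nucleoplasm in vitro was 67.5%, 59.2%, 51.8% and 54.5% in the same classes. On the deposited scale the 5′ end in nucleoplasm was thus less reactive in living cells than after refolding, and in cytoplasm it was more reactive in living cells than after refolding.

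**Figure D3:**
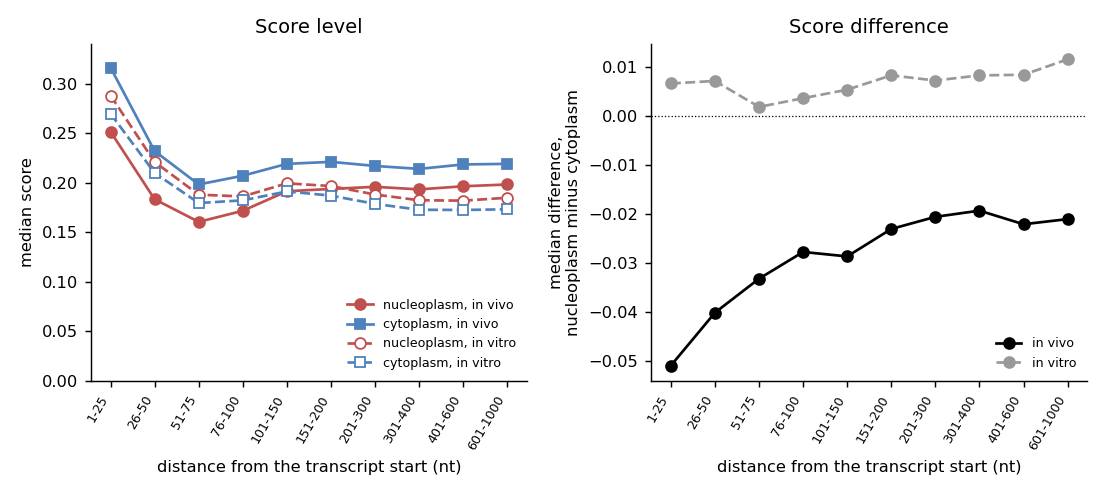
Median score (left) and median score difference, nucleoplasm minus cytoplasm (right), by distance from the transcript start in nucleotides, for transcripts with at least 10 nucleotides of the class scored in all 4 files. In living cells the difference goes from -0.0510 at 1 to 25 nt to -0.0211 at 601 to 1000 nt, whereas in refolded RNA it stays above 0, between 0.00184 and 0.0116.

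Within transcripts the same gradient appeared when each was cut into 10 equal parts. For 2865 transcripts with both the first and the last part measured, the difference was lower in the first part for 70.6% (68.9 to 72.3), with a median of first minus last of -0.0282. With ranks, which are fractions of a file and not score units, the median was -0.0318. In score units it was -0.0364 over nucleotides above 0 in both files and -0.0312 among transcripts whose abundance values lay within 1.5 times. Over 2396 transcripts in all 4 files, 71.5% had the lower difference in the first part in vivo and 45.2% in vitro. With ranks these shares were 73.7% in vivo and 38.8% in vitro. The median of first minus last over the same transcripts was 0.00550 in vitro and -0.0287 in vivo. The gradient ran through every length class that could be measured. The first part was lower for 56.02% (52.6 to 59.4) of transcripts of 300 to under 1000 nt, 70.9% of those of 1000 to under 2000 nt, 80.5% of those of 2000 to under 4000 nt and 79.0% of those of 4000 nt and longer. In the longest class the median difference was -0.0269 in the first part and 0.00394 in the last, so the 5′ end was lower in nucleoplasm and the 3′ end was not. Among 5 equal groups by the abundance ratio the share lay between 64.98% and 74.2%.

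Near the 3′ end the compartments were nearly level, apart from the last scored stretch. In the nucleotides 26 to 50 from the end (the last 30 are unscored), the median score was 0.114 in nucleoplasm and 0.145 in cytoplasm, and 24.3% of 4658 transcripts were higher in nucleoplasm. In the nucleotides 76 to 100 from the end, it was 0.186 in nucleoplasm and 0.185 in cytoplasm, and 46.8% of 5185 transcripts were higher in nucleoplasm. With ranks the share there was 59.3%.

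Transcripts that leaned toward the nucleoplasm in abundance had the smallest score deficit there. With transcripts cut into 5 equal groups (quintiles) by abundance ratio, the lowest quintile had 30.0% of 1480 transcripts higher in nucleoplasm in score, with a median difference of -0.0191. The next 3 groups held 19.9%, 19.3% and 28.1%. In the highest quintile 49.8% (47.2 to 52.4) were higher, with a median difference of -0.000134. With ranks the shares were 26.1%, 21.4%, 33.8%, 68.6% and 88.8% from the lowest to the highest quintile. Across all transcripts Spearman's rho between the abundance ratio and the score difference was 0.264, a description over transcripts that share both files. The refolded RNA rose over the quintiles too, so the relation was not particular to living cells. Over nucleotides in all 4 files, its median difference was 0.00135, 0.00551, 0.00872, 0.0152 and 0.0252 from the lowest to the highest quintile. In vivo, the same nucleotides had -0.0190 in the lowest quintile (n = 1366) and -0.00455 in the highest (n = 785). The zero scores moved with the quintiles: their median share was 31.4% in nucleoplasm and 18.4% in cytoplasm in the lowest quintile, and 33.4% in nucleoplasm and 40.7% in cytoplasm in the highest. The median abundance value in cytoplasm was 96.0 in the lowest quintile and 17.9 in the highest. The part of depth and zeros in this relation was not tested.

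**Figure D4:**
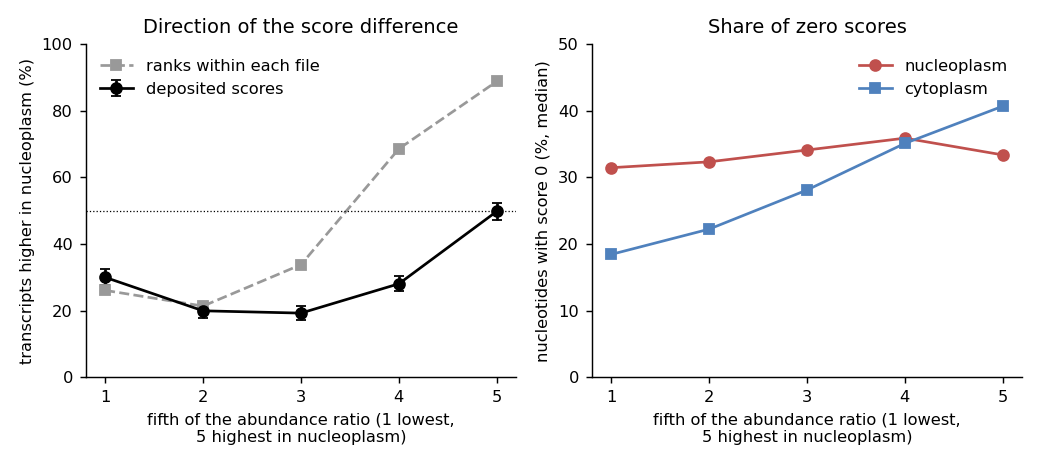
Percent of transcripts with the higher score in nucleoplasm (left; error bars are exact 95% binomial intervals for the deposited scores) and median share of nucleotides with score 0 (right), by quintile of the abundance ratio from lowest to highest in nucleoplasm. The deposited scores reach 49.8% in the highest quintile and ranks 88.8%, while the share of zeros in cytoplasm lies at 18.4% in the lowest and 40.7% in the highest quintile.

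The share of transcripts with the higher score in nucleoplasm did not follow length in 1 direction. It was 20.6% under 300 nt, 34.7% at 300 to under 1000 nt, 18.7% at 1000 to under 2000 nt, 26.1% at 2000 to under 4000 nt and 43.7% (39.8 to 47.6) at 4000 nt and longer. With ranks these were 37.6%, 41.8%, 36.3%, 56.1% and 83.8%. In the longest class, the difference in vivo over nucleotides in all 4 files had a median of -0.00557, and that in vitro 0.0261 (n = 377).

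Full switches of single nucleotides between the compartments were rare, while smaller shifts were common. With scores cut into 5 classes (0, above 0 to 0.1, to 0.3, to 0.6 and to 1), 42.6% of the shared nucleotides fell in the same class, 26.7% in a higher class in nucleoplasm and 30.8% in a lower one. Of all shared nucleotides, 0.503% scored above 0.6 in nucleoplasm and 0 in cytoplasm, and 0.479% scored 0 in nucleoplasm and above 0.6 in cytoplasm. The class of 0 was nearly level, with 32.62% of nucleotides in nucleoplasm and 32.03% in cytoplasm. The middle class of 0.3 to 0.6 held 13.6% of nucleotides in nucleoplasm and 15.2% in cytoplasm. Very low scores, above 0 to 0.1, held 20.1% in nucleoplasm and 17.6% in cytoplasm.

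On the deposited scale, unreactive stretches were more frequent in nucleoplasm, and reactive ones less so. The cut-offs were fixed scores, and no count of runs on another scale is given here. Runs of at least 10 nucleotides with scores up to 0.1 numbered 5.76 per 1000 shared nucleotides in nucleoplasm and 4.75 in cytoplasm, and 43.6% of the nucleoplasm runs overlapped a cytoplasm run, while 52.6% of the cytoplasm runs overlapped a nucleoplasm run. Runs of at least 4 nucleotides with scores of 0.5 or more numbered 3.14 per 1000 in nucleoplasm and 4.25 in cytoplasm, and 46.2% of the nucleoplasm runs overlapped a cytoplasm run, while 34.03% of the cytoplasm runs overlapped a nucleoplasm run. The reactivity was also more unevenly spread in nucleoplasm. The Gini index, which is 0 for an even profile, had a median of 0.668 in nucleoplasm and 0.635 in cytoplasm, and it was higher in nucleoplasm for 82.1% (81.2 to 82.9) of transcripts. Over nucleotides above 0 in both files it was higher in nucleoplasm for 86.8% of 6414 transcripts, so the difference was there without zero scores as well.

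The shape of the profile along a transcript was largely shared. Pearson's r between the nucleoplasm and the cytoplasm profile had a median of 0.697 (quartiles 0.5999 and 0.804) and lay between 0.272 and 0.993. It was highest for short transcripts, with a median of 0.910 under 300 nt and 0.574 at 4000 nt and longer. The median abundance values also differed between these classes. They were 169 in nucleoplasm and 131 in cytoplasm under 300 nt, and 22.4 in nucleoplasm and 18.3 in cytoplasm at 4000 nt and longer. The part of abundance in this was not tested. By quintile of the abundance ratio the median r was 0.864 in the lowest and 0.595 in the highest, alongside the lower cytoplasm abundance values given above.

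Individual transcripts departed from the common level by much more than the median. ENSMUST00000018246 (736 nt) had the lowest difference among transcripts with at least 300 shared nucleotides, with a mean score of 0.116 in nucleoplasm and 0.273 in cytoplasm over 423 nucleotides. After refolding the same nucleotides scored 0.167 in nucleoplasm and 0.163 in cytoplasm. The deficit ran along the whole scored stretch, since 19 of its 20 windows of 20 nt were not higher in nucleoplasm, and the profile kept its shape, with r of 0.846. ENSMUST00000131374 (3721 nt) scored 0.264 in nucleoplasm and 0.395 in cytoplasm over 484 nucleotides. Its refolded RNA differed further in the same direction, with 0.0954 in nucleoplasm and 0.388 in cytoplasm. The next 3 transcripts by this rule had differences between -0.126 and -0.0967. All the transcripts of this paragraph had log2 abundance ratios between -1.56 and -0.45. Of all compared transcripts, 21.7% had a higher abundance value in nucleoplasm.

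The transcripts at the other end were more reactive in nucleoplasm. ENSMUST00000139730 (2849 nt) had a mean score of 0.318 in nucleoplasm and 0.116 in cytoplasm over 313 nucleotides. Windows between positions 441 and 640 carried the excess, and those from position 2281 on were close to each other. No window between these stretches had enough shared nucleotides, so the extent of the excess is not known. The abundance value of this transcript in cytoplasm was 11.9. Zeros made up 29.7% of its shared nucleotides in nucleoplasm and 42.2% in cytoplasm. ENSMUST00000139295 (1288 nt) scored 0.358 in nucleoplasm and 0.160 in cytoplasm over 341 nucleotides, and after refolding 0.2296 in nucleoplasm and 0.213 in cytoplasm. In it all 16 windows were higher in nucleoplasm. The next 3 transcripts by this rule had differences between 0.189 and 0.194, and 1 of them was higher in 66 of its 67 windows, over 1368 nucleotides. These 5 transcripts did not share a lean in abundance, with log2 ratios of nucleoplasm over cytoplasm between -0.87 and 1.43.

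**Figure D5:**
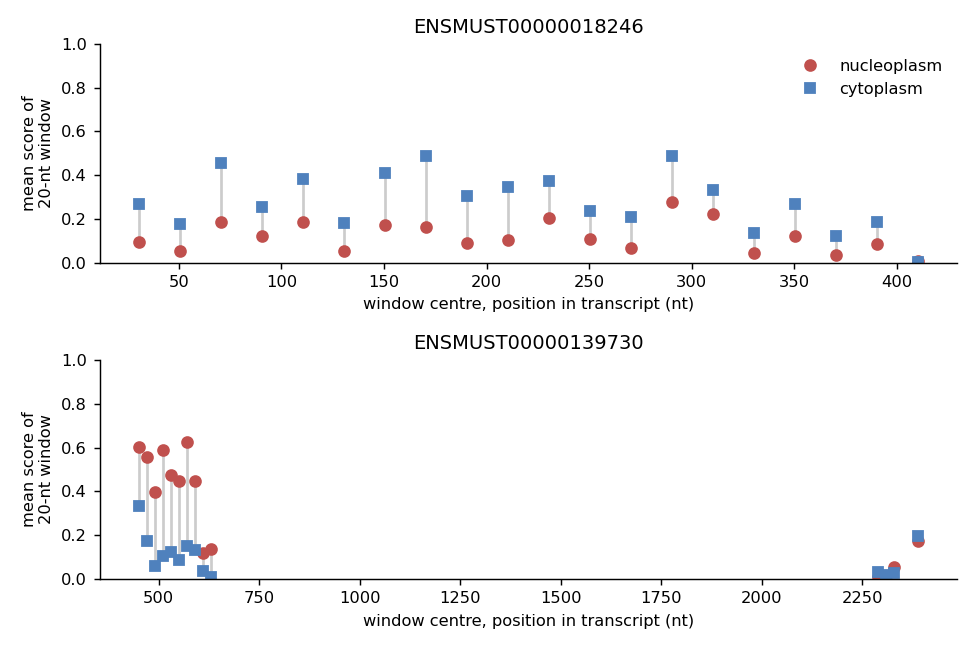
Mean score of 20-nt windows along ENSMUST00000018246 (top) and ENSMUST00000139730 (bottom) in living cells, by position in the transcript, with grey lines joining the nucleoplasm and cytoplasm values of a window. In the upper transcript the nucleoplasm points lie below the cytoplasm points along the stretch except at its last window; in the lower one they lie above near position 500 and close together from position 2281 on.

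Some transcripts differed in living cells in the opposite sense to their refolded RNA. ENSMUST00000133785 (2858 nt) scored 0.304 in nucleoplasm and 0.121 in cytoplasm in vivo, and 0.164 in nucleoplasm and 0.337 in cytoplasm in vitro, over 403 nucleotides. ENSMUST00000124824 (609 nt) scored 0.311 in nucleoplasm and 0.0767 in cytoplasm in vivo, and 0.177 in nucleoplasm and 0.294 in cytoplasm in vitro, over 183. In the reverse sense, ENSMUST00000031613 (1185 nt) scored 0.150 in nucleoplasm and 0.212 in cytoplasm in vivo, and 0.205 in nucleoplasm and 0.125 in cytoplasm in vitro. The lowest in this sense was ENSMUST00000018246, given above.

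Large local shifts were few. Of 358890 windows of 20 nt, 1598 (0.445%) were at least 0.2 higher in nucleoplasm and 1447 (0.403%) at least 0.2 lower, against 0.447% and 0.403% over all transcripts listed in both files. Of the shifted windows 52.5% (50.7 to 54.3) were higher in nucleoplasm. That split depended on the scale and the threshold: it was 70.6% with scores divided by the file mean, 81.6% with ranks, 40.7% at a threshold of 0.1 and 67.7% at 0.3. Shifted windows lay in 1617 transcripts, and 196 of these held windows of both kinds. Windows lower in nucleoplasm were concentrated near the start, making up 1.30% of windows that began in the first 100 nt and 0.237% of those beyond position 2000. Windows higher in nucleoplasm made up 0.516% and 0.577% in the same places. The shifted windows were picked by their in vivo difference, and since DMSO samples entered both kinds of score, their in vitro values are not free of that choice. The windows higher in nucleoplasm in vivo had a median difference of 0.227 in vivo and 0.0522 in vitro (971 windows in all 4 files), and 5.56% of them passed 0.2 in vitro as well. Those lower in nucleoplasm had -0.223 in vivo and -0.0138 in vitro (1101 windows), and 2.63% of them passed that threshold in vitro. Of the 279125 windows in all 4 files that were not shifted in vivo, 0.489% were at least 0.2 higher in nucleoplasm in vitro and 0.216% at least 0.2 lower, with a median difference of 0.0148.

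The named windows show these shifts nucleotide by nucleotide. In ENSMUST00000133426 (3593 nt), the window at positions 2661 to 2680 scored 0.195 in nucleoplasm and 0.742 in cytoplasm, with 19 of 20 nucleotides lower in nucleoplasm. No nucleotide of it reached 1 in nucleoplasm and 8 did in cytoplasm, while the mean over the whole transcript was 0.258 in nucleoplasm and 0.242 in cytoplasm. The refolded RNA differed at the same window, with 0.156 in nucleoplasm and 0.457 in cytoplasm. In ENSMUST00000004389 (863 nt), the 20-nt window that ended at position 120 scored 0.0930 in nucleoplasm and 0.612 in cytoplasm, and all 20 nucleotides were lower in nucleoplasm. In ENSMUST00000184287 (779 nt), positions 701 to 720 scored 0.671 in nucleoplasm and 0.152 in cytoplasm, and all 20 nucleotides were higher in nucleoplasm. In vitro that window scored 0.282 in nucleoplasm and 0.129 in cytoplasm. In ENSMUST00000139730, described above, the 20-nt window that ended at position 520 scored 0.587 in nucleoplasm and 0.102 in cytoplasm, with 18 of 20 nucleotides higher in nucleoplasm.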

How the data were processed

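The authors deposited 1 icSHAPE file per group. Each gave, per transcript, an abundance signal and 1 score per nucleotide. Neither the unit of the deposited abundance signal nor the program that made the deposited score is given in the sources used here. Per the submitters' processing notes, Bowtie2, UMI-tools and the mm10 build were used; their part in these files is not stated. The score was 0 to 1 or missing, except in the 100-nt ENSMUST00000102409, which held 3 values outside that range and was not compared. Mean scores per transcript were taken over nucleotides scored in both in vivo files (at least 100). Abundance ratios used a pseudocount of 1. Windows were 20 nt, with at least 15 shared nucleotides. Ranks ran over all scored nucleotides of a file, including transcripts that were not compared, and were given as fractions from 0 to 1. Named transcripts were those with the highest and lowest score differences (at least 300 shared nucleotides), abundance ratios, in vivo minus in vitro differences and windows, 1 per family of transcripts that shared a 60-nt pattern of zero scores in nucleoplasm (7341 families); up to 2 identifiers per direction are printed. The comparison, members and lists were chosen with earlier results of these data known. The gene lists could not be applied without gene names. Code (Python 3.11.15, NumPy 2.4.6, SciPy 1.17.1, pandas 2.3.3) was tested on simulated data. With 1 file per group, counts and intervals cover no culture variation.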

Additional observations from a re-analysis of the deposited data

Results flagged for a closer look

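Over the same nucleotides, the median score difference, nucleoplasm minus cytoplasm, was -0.0172 in living cells and 0.00884 in refolded RNA, opposite directions in 1 pair of files each. The difference between these effects was not tested. The share of transcripts with a higher difference in vivo than in vitro was 23.1% on the deposited scale and 64.3% with ranks. With scores divided by the file mean it was 51.4% (49.99 to 52.7). This contrast thus turned with ranks and was near an even split with divided scores. Scored positions were identical in vivo and in vitro within each compartment. The cytoplasm in vitro file listed the fewest transcripts and had the highest share of zeros of the files used.

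The share of transcripts higher in nucleoplasm in vivo was 29.4% (n = 7398) in mES cells and 59.1% (57.0003 to 61.1; n = 2238) in HEK293 cells, a human embryonic kidney line. The gradient along the transcript was also opposite in direction: the difference in the first of 10 parts minus that in the last had a median of -0.0282 (n = 2865) in mES cells and 0.0593 (n = 881) in HEK293 cells. Both contrasts are on the deposited scale. The mES share of 29.4% was 47.7% with ranks and 41.5% with scores divided by the file mean. No values on those scales are given here for HEK293 cells. Neither contrast between the cell lines was tested, and cell line, rRNA removal kit and sequencer cannot be told apart.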

How the results depend on the processing

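Each comparison had 1 file a side, so no replicate could be left out. No paired analysis was possible because each group held 1 file and no test was run. The last 3 values for the 10 parts and the in vivo abundance ratio of the 5181 transcripts were chosen after seeing the data. Of 51 alternative values, 14 stayed within the interval of the main value, 33 moved outside it in the same direction and 4 turned by the point value. Median differences with ranks are fractions of a file and not score units, so only their direction can be set against the main value. The share of transcripts higher in nucleoplasm (29.4%) was 47.7% with ranks, 41.5% with scores divided by the file mean, 30.7% with abundance within 1.5 times, 25.7% with at least 300 shared nucleotides, 25.2% over nucleotides in all 4 files and 23.5% over all nucleotides of each file. The median difference (-0.0145) was -0.00185, -0.00541, -0.0109, -0.0157 and -0.0172 in the first 5 of these settings, and -0.0187 over nucleotides above 0. The share with a higher difference in vivo than in vitro (23.1%) turned to 64.3% with ranks and 51.4% (49.99 to 52.7) with divided scores. The latter interval lies on both sides of an even split. This share was 26.1% above 0, 18.1% with matched abundance, 16.5% with 300 nucleotides and 24.4% at even positions. The share of shifted windows higher in nucleoplasm (52.5%) was 49.4% (46.9 to 51.99) with matched abundance, an interval on both sides of an even split. It turned to 40.7% at a threshold of 0.1, and was 81.6% with ranks, 70.6% with divided scores, 57.5% above 0 and 67.7% at 0.3. The median r (0.697) was 0.643 above 0, 0.687 with 300 nucleotides and 0.6002 as Spearman's rho. The median log2 abundance ratio (-0.55) was -0.57 with a pseudocount of 0.1, -0.58 with none, -0.88 in vitro and -0.71 in vivo for the same 5181 transcripts. First minus last of 10 parts (-0.0282) was -0.0318 with ranks, -0.0317 in transcripts with all parts, -0.0364 above 0 and -0.0312 with matched abundance. The median score difference of the highest minus that of the lowest quintile of the abundance ratio (0.0189) was 0.0593 with ranks and 0.0118 by in vitro abundance. The cause of the 4 turns was not tested. Depth behind each score is unknown, which limits how firmly single transcripts and windows can be read.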
